A study of Homo sapiens with 2 samples.

Results

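The EGF receptor family genes EGFR, ERBB2 and ERBB3, the ligand genes HBEGF, AREG, EREG, TGFA, BTC and NRG1, and the feedback inhibitor gene ERRFI1 were described in lung cancer cells after knockdown of CTNNB1. Members were all probe sets annotated to exactly 1 of these 10 gene symbols. This gave 35 probe sets for 9 of the 10 genes, out of 19775 genes with a probe set of 1 symbol in the table. AREG had no such probe set in the annotation used and was not analysed here. One sample was HCC15, an established lung cancer cell line labelled squamous, transfected with siRNA to CTNNB1, which encodes beta-catenin. The other was HCC15 with a control siRNA, whose target the labels do not state and whose title carries the word Tax. Both were collected 48 h after transfection and grown in RPMI medium with 5% serum, and each group was 1 culture of 1 cell line on 1 biotin-labelled array. The stated aim, from the title of the series, was to find Wnt targets in lung cancer with mutated CTNNB1.

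The family passes growth signals from outside the cell to the RAS-ERK and PI3K-AKT pathways. A ligand is made as a membrane protein, is cut loose by a protease such as ADAM17, and brings receptors together in pairs, which then phosphorylate each other. EGFR binds EGF, TGFA, AREG, EREG, BTC and HBEGF, while NRG1 binds ERBB3 and ERBB4. ERBB2 has no known ligand and ERBB3 has a weak kinase, so both act mainly as partners. ERRFI1 binds the EGFR kinase domain and blocks it. In the lung, this family drives growth of epithelial cells and is a drug target in carcinoma.

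The knockdown was visible in the targeted transcript. The CTNNB1 probe set of highest mean signal (201533_at) read 339 with CTNNB1 siRNA and 1224 with control siRNA, and the other 2 (1554411_at and 223679_at) read 51% and 91.3% of the control. The epithelial markers KRT8, KRT18, EPCAM, KRT19 and CDH1 all passed the signal filter described below. KRT8, KRT18, EPCAM and KRT19 had log2 ratios of 0.10 to 0.39, and CDH1 read 594 with CTNNB1 siRNA and 939 with control siRNA, a log2 ratio of -0.66. Of 9 squamous markers, 7 had a named probe set and 3 passed the filter. These were SFN, PERP and SOX2, with log2 ratios of -0.13, 0.32 and -0.53. KRT5 read 9.8 with CTNNB1 siRNA and 34.4 with control siRNA, and KRT14 read 6.7 with CTNNB1 siRNA and 25 with control siRNA. DSC3 (206032_at) was also lower, at 19 with CTNNB1 siRNA and 47.5 with control siRNA. DSG3 (205595_at) went the other way, at 37.5 with CTNNB1 siRNA and 8.8 with control siRNA. No probe set of KRT5, KRT14, DSC3 or DSG3 passed the filter, and each gene had a signal under the floor given below. Of the immune markers, PTPRC and CD3E had named probe sets and neither passed. Some markers of other cell types did pass. Of 2 endothelial markers PECAM1 passed, with 80.8 with CTNNB1 siRNA and 96.4 with control siRNA. Its other entering probe set (208982_at) read 93.9 with CTNNB1 siRNA and 74.5 with control siRNA. Of 3 fibroblast markers DCN (log2 ratio 0.11) and COL1A1 passed, and COL1A1 read 80.3 with CTNNB1 siRNA and 162 with control siRNA, while its 2 other entering probe sets had log2 ratios of 0.05 and 0.07. Of 4 lung adenocarcinoma or alveolar markers NAPSA (0.22), SFTPB and SFTPC passed. SFTPB was 0.06 on its probe set of highest mean signal and -0.41 and -0.30 on its other entering ones. SFTPC (38691_s_at) read 191 with CTNNB1 siRNA and 107 with control siRNA, and its other probe sets were all under the floor on both arrays. The part of these markers in the results on the family was not tested.

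Signals are MAS5 intensities on a linear scale without units, and a level of one probe set cannot be set against that of another. A probe set entered with a mean signal over both arrays of 49.1 or more, which is the median signal, and 20 of the 35 member probe sets did. Signals under 13.8, the 25th percentile, were set to that floor before a ratio was taken, so a fold that involves the floor is given as at least that size. Of the 15 member probe sets under the filter, 7 had both signals under the floor and give no ratio. All log2 ratios are CTNNB1 siRNA over control siRNA. There was no replicate and so no test, and a gene was called by size, at a difference of at least 2-fold in its entering probe set of highest mean signal. As a measure of error, log2 ratios of entering probe sets of the same gene had a pooled SD of 0.42 (5791 genes), which does not cover variation between cultures. This SD was 0.29 for probe sets with a mean signal of at least 209 and 0.52 for dimmer ones, and each ratio below is set against the SD at its own signal.

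Of the 8 member genes that entered, ERBB3 was at least 2-fold higher with CTNNB1 siRNA and NRG1 at least 2-fold lower. ERBB3 fell short of 2-fold under 4 of 5 other scalings of the arrays, with log2 ratios of 0.86 to 0.92, and NRG1 stayed past it under all 5. HBEGF was 1.88-fold higher, EGFR 1.38-fold and EREG 1.34-fold. ERBB2, TGFA and ERRFI1 differed between the arrays by less than the probe set SD of 0.29. Across all 12531 entering genes, 4.67% passed 2-fold, 2.29% upward and 2.38% downward, against 2 of the 8 members. The median log2 ratio was 0.20 over the 8 members and 0.15 over all entering genes, with 4 members above and 4 below that median. EGFR, ERBB2, ERBB3, HBEGF and NRG1 lay further from the median of all genes than 0.29, the probe set SD at their signals. EGFR (0.31) and ERBB2 (-0.35) did so only slightly, and EGFR lay just 0.19 above the median of genes of like signal. Over a gene's own entering probe sets, dim ones included, the SD was 0.57 for EGFR, 0.61 for ERBB3 and 0.54 for NRG1. It was 0.21 for HBEGF, and ERBB2 had 1 entering probe set. A ratio in bulk RNA cannot tell a change in every cell from a change in the share of cells that make a transcript.

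**Figure D1:**
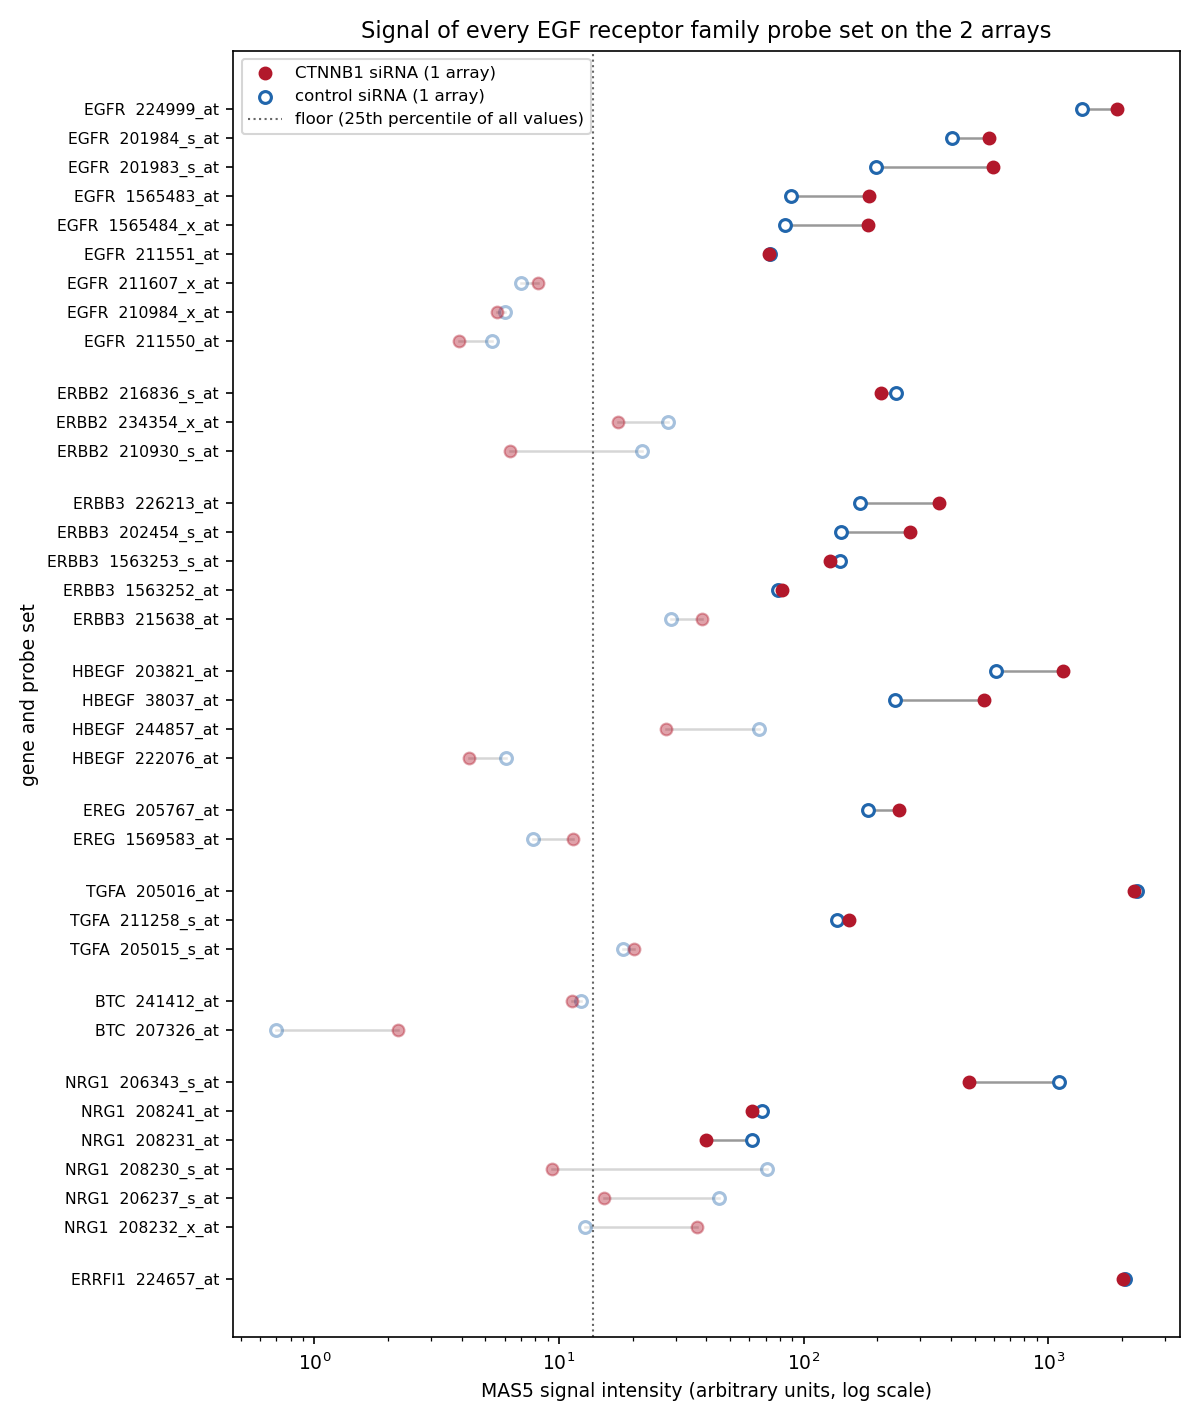
MAS5 signal (log scale, no units) of each of the 35 member probe sets with CTNNB1 siRNA (filled red points) and control siRNA (open blue points), 1 array each. Faded pairs are the 15 probe sets under the signal filter, and the dotted line is the floor of 13.8. The red point lies to the right of the blue one for 5 of 6 entering EGFR probe sets and both entering HBEGF probe sets, and to the left for all 3 entering NRG1 probe sets.

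Among the receptors, EGFR was higher on 5 of its 6 entering probe sets, by unequal amounts. Its probe set of highest mean signal (224999_at) read 1904 with CTNNB1 siRNA and 1381 with control siRNA, a log2 ratio of 0.46. The next (201984_s_at) read 575 with CTNNB1 siRNA and 406 with control siRNA, a log2 ratio of 0.50. These are both above the probe set SD of 0.29, and 18.4% of all entering genes had a ratio as high as that of 224999_at or higher. Genes of like signal had a median of 0.28, and 224999_at lay 0.19 above it, less than that SD. The third (201983_s_at) read 594 with CTNNB1 siRNA and 198 with control siRNA, a 3-fold difference and the largest of the family's entering probe sets. The pair 1565483_at and 1565484_x_at, which carry 1 shared accession, read 186 and 183 with CTNNB1 siRNA, against 88.5 and 84.3 with control siRNA. Both were more than 2-fold higher, with log2 ratios of 1.07 and 1.12. The sixth entering probe set (211551_at) was level, at 72.5 with CTNNB1 siRNA and 72.7 with control siRNA. Signals of the remaining 3 EGFR probe sets lay between 3.9 and 8.2, under the floor on both arrays. The entering EGFR probe sets thus ran from a log2 ratio of 0.00 to 1.59, with a median of 0.78 and an SD of 0.57.

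ERBB3, the receptor that pairs with ERBB2 after binding neuregulin, was 2.11-fold higher by its probe set of highest mean signal (226213_at), with a signal of 358 with CTNNB1 siRNA and 170 with control siRNA. The second (202454_s_at) read 271 with CTNNB1 siRNA and 142 with control siRNA, 1.91-fold higher. The log2 ratios of this pair, 1.07 and 0.93, were above the probe set SD at their signals, 0.29 and 0.52. Another pair annotated to ERBB3 did not follow. The probe set 1563253_s_at read 128.5 with CTNNB1 siRNA and 141 with control siRNA, and 1563252_at read 82 with CTNNB1 siRNA and 78.6 with control siRNA. Both carry 1 shared accession, while 226213_at and 202454_s_at carry an accession each. The fifth ERBB3 probe set (215638_at), under the filter, read 38.6 with CTNNB1 siRNA and 28.8 with control siRNA. The ratio of 226213_at ranked 224th from the highest of the 12531 entering genes.

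ERBB2, the partner receptor without a ligand of its own, was not higher. Its entering probe set (216836_s_at) read 208 with CTNNB1 siRNA and 239 with control siRNA, a log2 ratio of -0.20 that is smaller than the probe set SD. The dim probe set 234354_x_at read 17.5 with CTNNB1 siRNA and 28 with control siRNA. The other dim one, 210930_s_at, read 6.3 with CTNNB1 siRNA and 21.8 with control siRNA, so both were also lower. Dim genes leaned downward on this array in general, with a median log2 ratio of -0.23 in the dimmest decile of entering genes and 0.28 in the decile below the brightest. Whether that lean sets the dim ERBB2 values was not tested. The fourth receptor, ERBB4, is no member. Its entering probe sets disagreed. With CTNNB1 siRNA 233498_at read 78.6, against 73.8 with control siRNA, while 214053_at read 43.1 with CTNNB1 siRNA and 66.8 with control siRNA.

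Among the ligands, HBEGF and NRG1 stood at opposite ends. HBEGF, the heparin-binding ligand of EGFR and ERBB4, read 1147 with CTNNB1 siRNA and 609 with control siRNA (203821_at), a log2 ratio of 0.91 that fell short of 2-fold. Its other entering probe set (38037_at) read 549 with CTNNB1 siRNA and 237 with control siRNA and was 2.32-fold higher. The pair had a mean signal of at least 209, where the probe set SD was 0.29, and the log2 ratios differed from each other by about that much. By 203821_at, HBEGF lay above 96.9% of entering genes. The third probe set annotated to HBEGF (244857_at), which lies under the filter and carries no accession in the annotation, went the other way, at 27.4 with CTNNB1 siRNA and 65.8 with control siRNA. The fourth (222076_at) lay under the floor on both arrays, at 4.3 with CTNNB1 siRNA and 6.1 with control siRNA.

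NRG1, the neuregulin that binds ERBB3 and ERBB4, was the member with the largest decrease. Its probe set of highest mean signal (206343_s_at) read 474 with CTNNB1 siRNA and 1107 with control siRNA, which is 42.8% of the control, with a log2 ratio of -1.22. That is larger than the probe set SD of 0.29 and ranked 150th from the lowest of the 12531 entering genes. In its decile of genes by signal, 0.878% were at least 2-fold lower and the median log2 ratio was 0.20. The annotation pairs this probe set with the record of the transcript called SMDF, a membrane-anchored form of neuregulin known from sensory and motor neurons. The 2 other entering NRG1 probe sets were lower by less. The probe set 208231_at read 39.8 with CTNNB1 siRNA and 61.7 with control siRNA, and 208241_at read 61.5 with CTNNB1 siRNA and 67.8 with control siRNA. Of those under the filter, 208230_s_at read 9.4 with CTNNB1 siRNA and 71 with control siRNA, at least 5.14-fold lower. The probe set 206237_s_at read 15.3 with CTNNB1 siRNA and 45.3 with control siRNA. The last, 208232_x_at, was the exception, at 36.7 with CTNNB1 siRNA and 12.8 with control siRNA, at least 2.66-fold higher. So 5 of 6 NRG1 probe sets were lower, by between 1.10-fold and at least 5.14-fold. The probe set of highest mean signal alone among the entering ones passed 2-fold. All but 206343_s_at were dim, and dim genes leaned downward in general. Whether that lean sets the dim NRG1 values was not tested.

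The other ligands differed less than HBEGF and NRG1 or stayed under the floor. EREG, epiregulin, read 246 with CTNNB1 siRNA and 184 with control siRNA (205767_at), a log2 ratio of 0.42 that is above the probe set SD of 0.29. Its second probe set (1569583_at) lay under the floor, at 11.4 with CTNNB1 siRNA and 7.8 with control siRNA. TGFA, which signals through EGFR, read 2249 with CTNNB1 siRNA and 2302 with control siRNA (205016_at). Its second entering probe set (211258_s_at) read 154 with CTNNB1 siRNA and 137 with control siRNA. The third, a dim one (205015_s_at), read 20.3 with CTNNB1 siRNA and 18.2 with control siRNA, so all 3 TGFA probe sets stayed within 0.17 of 0 in log2 ratio. BTC, betacellulin, had both its probe sets under the floor on both arrays, and no fold is given. With CTNNB1 siRNA they read 11.3 (241412_at) and 2.2 (207326_at), against 12.3 and 0.7 in the same order with control siRNA. ERRFI1, whose protein blocks the EGFR kinase, read 2024 with CTNNB1 siRNA and 2064 with control siRNA on its single probe set (224657_at), a log2 ratio of -0.03. TGFA and ERRFI1 both lay 0.31 below the median of genes of like signal, slightly more than the probe set SD of 0.29.

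**Figure D2:**
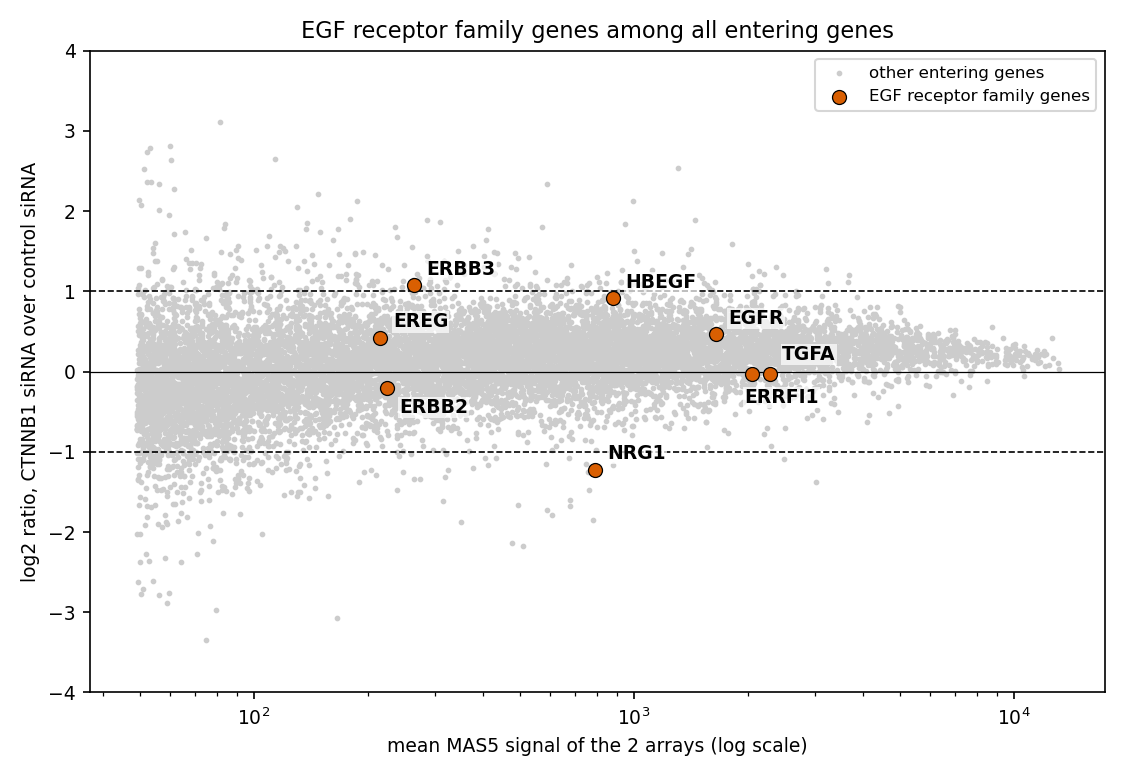
Log2 ratio of CTNNB1 siRNA over control siRNA against the mean MAS5 signal of both arrays (log scale) for all 12531 entering genes (grey) and the 8 entering members (orange), 1 probe set per gene. Dashed lines mark 2-fold. ERBB3 (1.07) lies above the upper line, HBEGF (0.91) just under it and NRG1 (-1.22) below the lower line.

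Counted by probe set rather than by gene, 5 of the 20 entering member probe sets were at least 2-fold higher, 3 of them of EGFR and 1 each of ERBB3 and HBEGF. Over all 22468 entering probe sets of 1 symbol, 3.42% were, and 5.63% passed 2-fold in either direction. Only 206343_s_at of NRG1 was at least 2-fold lower, against a share of 2.21%. Probe sets of 1 gene can read the same transcript and are not independent measurements.

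Upstream sequences are shown for EGFR and HBEGF, whose entering probe sets were mostly higher, and for ERBB2, whose entering probe set was not. Each is the 250 bases before a start site of RefSeq on GRCh38.p14, 5′ to 3′ on the strand of the gene. Capitals mark every match to the AP-1 motif TGANTCA, whose letters read the same on both strands.
EGFR, upstream start, chr7:55018767-55019016, plus strand: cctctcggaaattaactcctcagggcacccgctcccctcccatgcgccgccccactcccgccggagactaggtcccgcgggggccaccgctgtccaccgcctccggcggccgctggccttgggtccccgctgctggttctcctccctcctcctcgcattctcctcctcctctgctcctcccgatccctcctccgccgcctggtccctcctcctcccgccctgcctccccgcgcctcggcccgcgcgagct
EGFR, internal start, chr7:55109589-55109838, plus strand: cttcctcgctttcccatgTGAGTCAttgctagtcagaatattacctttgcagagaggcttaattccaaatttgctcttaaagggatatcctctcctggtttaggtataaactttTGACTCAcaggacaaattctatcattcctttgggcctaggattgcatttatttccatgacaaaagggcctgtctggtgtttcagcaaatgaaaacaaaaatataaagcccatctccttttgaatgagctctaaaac
HBEGF, chr5:140346604-140346853, minus strand: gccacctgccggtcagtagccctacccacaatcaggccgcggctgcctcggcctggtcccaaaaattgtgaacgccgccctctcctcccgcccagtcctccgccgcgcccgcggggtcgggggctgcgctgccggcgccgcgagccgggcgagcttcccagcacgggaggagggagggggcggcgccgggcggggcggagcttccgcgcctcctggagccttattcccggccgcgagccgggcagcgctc
ERBB2, chr17:39687844-39688093, plus strand: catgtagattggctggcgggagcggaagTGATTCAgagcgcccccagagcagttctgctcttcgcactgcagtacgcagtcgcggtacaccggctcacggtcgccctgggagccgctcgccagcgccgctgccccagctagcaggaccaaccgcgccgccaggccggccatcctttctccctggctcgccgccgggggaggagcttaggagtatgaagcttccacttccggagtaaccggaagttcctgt

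Windows were available for 10 start sites of 8 members, AREG and BTC included. No window was taken for ERBB3 and NRG1. The internal EGFR start lies 90822 bases downstream of the upstream one and holds 2 AP-1 matches, at positions -232 and -136 from its start. ERBB2 holds 1 match, at -222, and the other 8 windows hold none. Over all 35116 windows of that length, 6.57% hold the AP-1 motif. The TCF/LEF motif ATCAAAG, searched on both strands, was found in none of the 10 windows and in 2.26% of all windows. The cyclic AMP response element TGACGTCA, the same on both strands, was found in the AREG window alone of these 10 and in 1.65% of all. The GC box GGGCGG, searched on both strands, was found in 5 of the 10 and 42.6% of all, with 5 matches in HBEGF and 2 in the upstream EGFR window. These are letter matches in 1 short window per start, and the arrays do not measure which start was used.

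Other genes of the pathway passed 2-fold at a share near that of all genes. Of 111 other pathway genes, 98 had a probe set of 1 symbol and 85 entered. FOSL1 was at least 2-fold higher, and ETV4 and KIT were at least 2-fold lower, which is 3.53% of the 85 against 4.67% of all genes. Counted by the entering probe set of largest ratio, 11 of the 85 passed, 7 higher and 4 lower, against 1156 of 12531 genes. Those added were IGF1R, DDR2, PDPK1, MET, FOXO3 and CBL upward, and HGS and FGFR2 downward. The lists were chosen with earlier results of these data known, so their counts are descriptions. Of the remaining family ligands, EGF read 279 with CTNNB1 siRNA and 315 with control siRNA, and NRG2 read 137 with CTNNB1 siRNA and 119 with control siRNA. NRG3 and NRG4 did not pass the filter, with signals of 17.6 and 45.2 with CTNNB1 siRNA and of 9.2 and 48.8 with control siRNA, and EPGN was not analysed here.

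Genes that release ligands from the membrane had a median log2 ratio of 0.34 over 12 of 14 listed, none past 2-fold. CD9, a membrane partner of the HBEGF precursor, read 5350 with CTNNB1 siRNA and 3312 with control siRNA, a log2 ratio of 0.69. ADAM10, a protease that sheds EGF and BTC in mouse cells, had a log2 ratio of 0.42 and ADAM19 had -0.48. ADAM17, the main sheddase of TGFA, AREG and HBEGF, is given outside the naming rule for its role, at 0.38 with a range of -0.03 to 0.38 over 3 probe sets. Most of these genes have bright signals, and the medians of the 3 brightest deciles of all genes were themselves 0.25 to 0.28.

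Genes that switch the receptors off or carry them to degradation had a median of 0.31 over 14 of 17 listed, again with none past 2-fold. CBL, the ubiquitin ligase that marks EGFR for degradation, read 1491 with CTNNB1 siRNA and 761 with control siRNA, 1.96-fold higher. Its 3 entering probe sets ran from 0.88 to 1.03, and their spread was smaller than the probe set SD. SH3KBP1, an adaptor that links CBL to endocytosis, had a log2 ratio of 0.76, and LRIG3, a membrane protein related to the EGFR inhibitor LRIG1, had -0.73 from 87.2 with CTNNB1 siRNA and 145 with control siRNA.

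Among adaptors, 15 of 16 had a probe set of 1 symbol and 13 entered, with a median of 0.16 and none past 2-fold. GAB1, a docking protein for PI3K, had a log2 ratio of -0.65, while CRKL (0.46) and NCK1 (0.45) were above the probe set SD of 0.29. Their entering probe sets disagreed, from -0.13 to 0.46 over 2 of CRKL and from -0.26 to 0.63 over 4 of NCK1. Genes with a signal like that of CRKL had a median of 0.28. In the RAS-RAF-ERK core, 7 of 13 listed genes had a probe set of 1 symbol and 6 entered, with a median of 0.33. The largest ratios there were in MAPK3 (0.62), which encodes ERK1, MAP2K1 (0.39) and HRAS (0.36). In the PI3K-AKT core, 10 of 14 listed genes had a probe set of 1 symbol and all 10 entered, with a median of 0.26. PIK3R3, a regulatory subunit of PI3K, read 434 with CTNNB1 siRNA and 230 with control siRNA, 1.89-fold higher. AKT1 (0.61) and PIK3CB (0.53) followed, and none of the 10 passed 2-fold.

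Transcripts that ERK signalling is known to raise had the highest median of these lists, 0.47 over all 14, with 1 gene at least 2-fold higher and 1 at least 2-fold lower. Several of these genes are bright, and the medians of the 3 brightest deciles of all genes were 0.25 to 0.28. Whether that lean sets the list median was not tested. Entering probe sets of EGR1 ran from -0.58 to 0.62 and those of SPRED1 from -0.36 to 0.42. FOSL1, an AP-1 subunit, was 2.47-fold higher, and IER3 lay just under the rule at 3551 with CTNNB1 siRNA and 1783 with control siRNA. ETV4, an ETS factor, was at the edge of the rule in the other direction, at 158 with CTNNB1 siRNA and 317 with control siRNA. The members of the list therefore went both ways, with 3 of 14 below 0. Other receptor tyrosine kinases had a median of 0.11 over 13 of 17 listed. KIT was 2.30-fold lower, MERTK had a log2 ratio of 0.75 and FGFR2 of -0.75, the last from a dim signal.

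**Figure D3:**
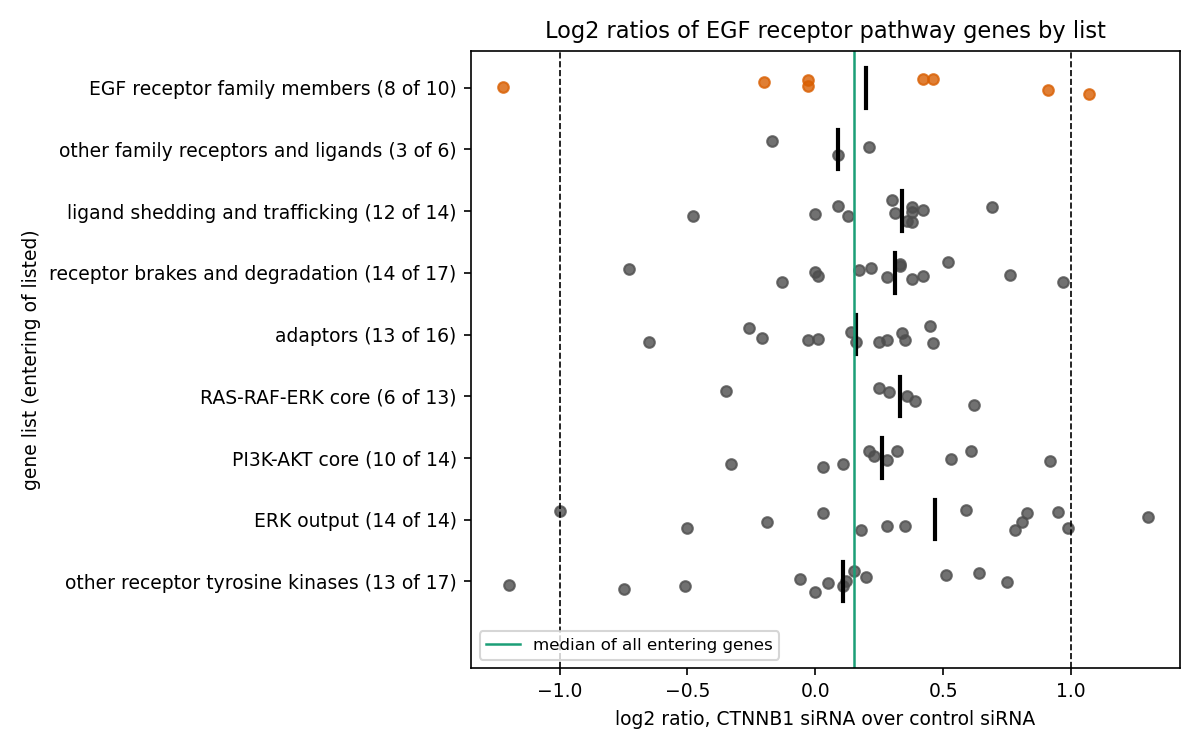
Log2 ratio of CTNNB1 siRNA over control siRNA (horizontal axis) for the entering genes of each list (rows, with entering and listed counts). Points are genes, black bars are list medians, the green line is the median of all entering genes (0.15) and dashed lines mark 2-fold. The members, in orange, spread from -1.22 to 1.07, more widely than the adaptors, which run from -0.65 to 0.46. A wide spread is not particular to the members. Transcripts that ERK signalling is known to raise spread about as widely, and other receptor tyrosine kinases run from -1.2 to 0.75.

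Across processing choices the calls of members changed more often than their signs. A floor at the median signal, no filter or a stricter filter left the deposited ratio of every entering member unchanged. Passes under those settings repeat the deposited call and are no separate check of it. Over 12 alternatives, NRG1 kept a log2 ratio below 0, from -1.46 to -0.14, and passed 2-fold in 10. It fell short with the median over its entering probe sets (-0.63) and when probe sets ending in _x_at, _s_at or _a_at were left out (-0.14), where 206343_s_at is absent. The NRG1 pass with the probe set of largest ratio (-1.22) came from the deposited probe set and also repeats the deposited call. ERBB3 stayed between 0.50 and 1.21 and passed 2-fold in 7 of the 12. Its ratio was also 1.07 with the probe set of largest ratio and when probe sets ending in _x_at, _s_at or _a_at were left out. Both settings picked the deposited ERBB3 probe set again, so these passes repeat the deposited call too. Passes of ERBB3 at other values came only with a common median (1.21) and the pseudocount (1.01). ERBB3 was 0.86 with a common trimmed mean, 0.92 after quantile normalization, loess and centring, and 0.50 as the median across its entering probe sets. HBEGF ran from 0.67 to 1.21 and passed in 3, with a common median (1.05), the median over its probe sets (1.06) and the probe set of largest ratio. EGFR ran from 0.18 after quantile normalization to 1.59 with the probe set of largest ratio, the 1 setting in which it passed. EREG stayed above 0 in all 12 and ERBB2 below 0 in the 11 in which it entered. The sign of TGFA and ERRFI1 depended on the setting.

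**Figure D4:**
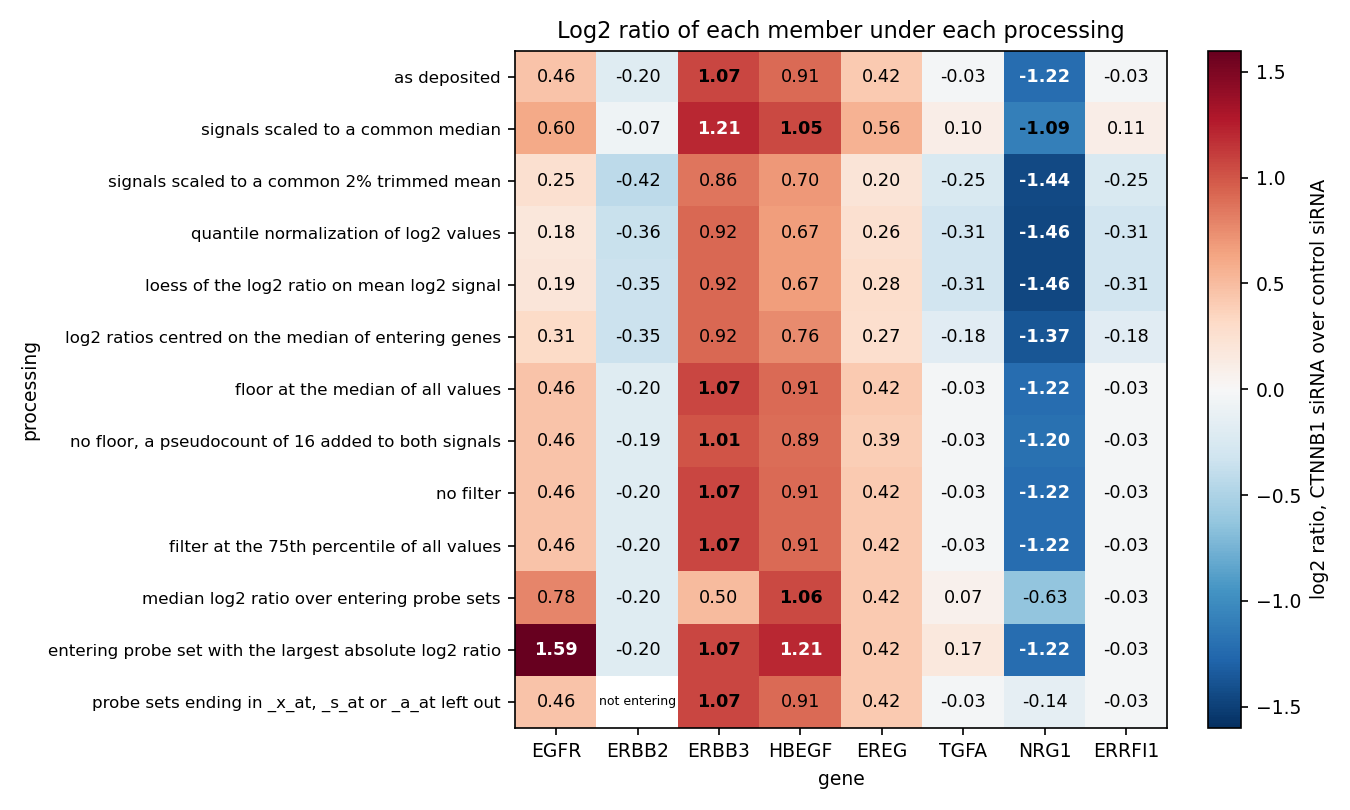
Log2 ratio of CTNNB1 siRNA over control siRNA for each entering member (columns) as deposited and under 12 other ways of processing (rows), with bold numbers at 2-fold or beyond. EGFR, ERBB3, HBEGF and EREG are above 0 in all rows and NRG1 is below 0 in all rows, while the number of bold cells changes from row to row.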

How the data were processed

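Gene expression was measured on 1 Affymetrix array for each of 2 samples. The deposited table holds 1 linear signal intensity per probe set for 54675 probe sets, made by the authors with MAS5, per the submitters' processing notes. No target intensity, scaling between arrays, detection call or genome build is given in the sources for this work. The 2% trimmed means were 270 on the CTNNB1 siRNA array and 233 on the control array. Names came from the platform annotation at GEO (41097 with 1 symbol, 1801 with several, 11777 not listed), with symbols updated to RefSeq through the Entrez number.

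Log2 ratios were taken from these deposited intensities without further normalization, with the floor, signal filter, choice of 1 probe set per gene and 2-fold rule given above (Python 3.11.15, numpy 2.4.6, pandas 2.3.3; loess with statsmodels 0.14.6). No test and no p-value was possible with 1 array per group, and the number of arrays limits the precision. The calculation was tested on simulated arrays with 200 changed genes. The members, the pathway lists and the tests were chosen with earlier results of these data known. Named were all members with every probe set, the other family receptors and ligands, CTNNB1, and in each other list the genes past 2-fold and those of largest absolute ratio up to 3 in all. With 2 arrays a pattern is a single ratio, so no gene was named as most like a member. Alternatives were 5 scalings, 2 floors, 2 filters and 3 ways to choose a probe set. Upstream sequences are from RefSeq, GRCh38.p14.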

Additional observations from a re-analysis of the deposited data

How the results depend on the processing

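With 1 array per group, no replicate could be left out. No paired analysis was possible because each group had 1 array and no test was made. The count of members past 2-fold, 2 as deposited, was 1 with a common trimmed mean, quantile normalization, loess, centring on the median ratio, the median over probe sets and probe sets ending in _x_at, _s_at or _a_at left out, 3 with a common median and 4 for the most changed probe set. The members' median of 0.20 turned to -0.02 with a common trimmed mean and to -0.06 after both quantile normalization and loess, where the median of all genes was also below 0 (-0.07, -0.03 and -0.02), and it lay between 0.05 and 0.42 in the other alternatives. The 585 genes past 2-fold became 372 with a pseudocount of 16, 1997 with no filter (17650 genes), 173 with the filter at the 75th percentile (7913 genes) and 1156 for the most changed probe set. Lower genes made up 50.9% of these calls as deposited, 27.9% with a common median, 81.2% with a common trimmed mean, 73.3% after centring, 57.6% after quantile normalization, 52.7% after loess, 39.5% with the floor at the median, 41.7% with the pseudocount, 63.8% with no filter, 19.7% for genes past the stricter filter and 41.3% for the most changed probe set. The 3 other pathway genes past 2-fold became 6 with a common median and 11 for the most changed probe set. Of 95 values of single members under alternatives, 91 moved by less than the pooled probe set SD of 0.42 and none of ERBB3 or NRG1 changed sign. The 95 include the values with a floor at the median, no filter or a stricter filter, which equal the deposited ones. Some choices of probe set also picked the deposited probe set again and gave the same value. No scaling moved a member by as much as 0.42, and all 4 larger moves came from the choice of probe set. The count of 91 is therefore a description and no check of the ratios. The probe set SD was larger for dim probe sets, so a ratio at a signal near the filter is the least certain.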
